A study of Homo sapiens with 12 samples.

Results

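Tandem neighbours are protein-coding genes that lie one behind the other on the same strand, so that the polymerase leaving the first gene runs towards the start of the second. Among the transcription units that the authors segmented from TT-Seq in K562 cells, a human chronic myelogenous leukaemia line with erythroid features, 467 pairs of mRNA units were adjacent on 1 strand with at most 5 kb between the 3′ end of the first unit and the 5′ end of the second. They were chosen by position and class alone, out of 7764 same-strand neighbouring mRNA pairs. The pairs held 898 of the 7810 mRNA units, and 21874 units of all classes were annotated. Pairs could chain: 398 runs had 2 units, 30 had 3 and 3 had 4, and 36 units were the second unit of 1 pair and the first of another.

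All RNA came from K562 cells given 500 µM 4-thiouridine (4sU) for 5 min, and the labels name no other treatment or genotype. TT-Seq (n = 2) sheared the RNA and then purified the labelled fragments, and 4sU-Seq (n = 2) purified labelled RNA without shearing. Total RNA-Frag-Seq (n = 2) sequenced sheared total RNA and Total RNA-Seq (n = 2) unsheared total RNA, so both held unlabelled RNA too, and they are also called by these names below. RNA polymerase II was mapped by ChIP after 7.5 min of crosslinking, with an antibody to the form phosphorylated on serine 2 (S2P, n = 2) or with the N-20 antibody (N20, n = 2). The design text calls the RNA libraries biological duplicates. For the ChIP duplicates nothing says so, and their p-values then measure a spread that may be technical.

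After the polyadenylation site of a gene, RNA is cut and polyadenylated, but the polymerase goes on transcribing until exonucleolytic degradation of the trailing RNA by XRN2 and slowing of the polymerase release it from DNA. The uncapped RNA made in this stretch is short-lived, and serine 2 phosphorylation of the polymerase is known to rise towards gene ends. Where another promoter lies close behind, termination has to be completed before that promoter, since polymerases reading through it can interfere with initiation there.

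The upstream sequences of 5 second genes are shown because each lies wholly in the gap between the units and outside any annotated same-strand coding gene. ROGDI, SLC25A22 and MICALL2 lie at gaps named below for their polymerase density, SRM follows a gap in a pair with one of the lowest unit ratios, and RCC1 follows the named gap with most TT-Seq. They are the 250 bases before the RefSeq start of the gene, from the GRCh38.p14 table of RefSeq, read 5′ to 3′ on the minus strand, and on the plus strand for RCC1. Capitals mark GGGCGG (the GC box, bound by SP1-family factors) and CCAAT (the CCAAT box, bound by NF-Y) on either strand.
ROGDI, chr16:4802634-4802883: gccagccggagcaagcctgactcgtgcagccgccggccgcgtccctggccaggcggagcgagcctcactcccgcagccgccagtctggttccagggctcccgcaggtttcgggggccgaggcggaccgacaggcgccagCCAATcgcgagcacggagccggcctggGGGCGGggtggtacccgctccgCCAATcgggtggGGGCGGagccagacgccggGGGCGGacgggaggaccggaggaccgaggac
SLC25A22, chr11:798282-798531: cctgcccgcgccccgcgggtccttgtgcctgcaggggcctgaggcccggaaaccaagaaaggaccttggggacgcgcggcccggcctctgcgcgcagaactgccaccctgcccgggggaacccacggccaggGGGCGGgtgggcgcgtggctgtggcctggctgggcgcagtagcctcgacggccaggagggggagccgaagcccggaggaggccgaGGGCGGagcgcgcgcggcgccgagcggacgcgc
MICALL2, chr7:1459471-1459720: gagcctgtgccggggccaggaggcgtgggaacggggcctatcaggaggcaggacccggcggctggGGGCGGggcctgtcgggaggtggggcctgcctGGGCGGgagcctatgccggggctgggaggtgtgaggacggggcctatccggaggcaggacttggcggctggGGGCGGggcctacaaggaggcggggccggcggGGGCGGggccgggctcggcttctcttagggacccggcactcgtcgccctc
SRM, chr1:11060019-11060268: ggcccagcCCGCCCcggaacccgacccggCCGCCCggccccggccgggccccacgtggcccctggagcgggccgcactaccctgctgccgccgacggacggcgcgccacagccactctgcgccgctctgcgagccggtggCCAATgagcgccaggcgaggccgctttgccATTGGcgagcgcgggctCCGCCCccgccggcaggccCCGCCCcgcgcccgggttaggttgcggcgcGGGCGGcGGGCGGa
RCC1, chr1:28505793-28506042: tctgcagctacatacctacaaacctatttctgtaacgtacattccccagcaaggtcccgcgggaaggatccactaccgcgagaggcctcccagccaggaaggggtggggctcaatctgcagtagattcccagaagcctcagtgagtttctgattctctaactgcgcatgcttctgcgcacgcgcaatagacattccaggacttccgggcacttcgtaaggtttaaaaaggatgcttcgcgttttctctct
The window of ROGDI held 3 GC boxes and 2 CCAAT boxes, that of SLC25A22 2 GC boxes, that of MICALL2 4 GC boxes, that of SRM 6 GC boxes and 2 CCAAT boxes, and that of RCC1 held neither. Their GC content was 76.4%, 78.0%, 76.8%, 82.0% and 52.4%, and TATAAA was found in none of the 5 windows. The windows of 3 other named second genes, ATP13A2, DNM2 and SDHAF4, also lay in the gap and outside coding genes, with GC contents of 72.8%, 60.8% and 60%, so the first 4 shown are the most GC-rich of these 8.

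The second genes of the pairs had GC-rich upstream windows, with a median GC content of 66.0%, against 65.6% in genes of mRNA units in no pair and 62.4% in all coding genes. A RefSeq coding gene with a 250-base window was matched to 281 second units and to 4836 mRNA units in no pair, and the table held 15858 coding genes in all. GGGCGG stood in 74.7% of the second genes' windows, against 69.7% in genes of mRNA units in no pair and 56.0% in all coding genes. CCAAT was found in 40.9%, 36.1% and 34.5% of these windows, in the same order. TATAAA was found in 3.91% of the second genes' windows, in 4.84% of those of genes in no pair and in 9.23% of all windows. The polyadenylation hexamer AATAAA was found in 8.90%, 8.13% and 11.9%. Each motif was searched on its own as exact letters on both strands, so letters shared by overlapping motifs count for both, and a match is a description of the window.

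Gaps were short. Their length ran between 489 and 4989 bp with a median of 1580 bp, which is 8 of the 200-bp bins in which counts were given. First units had a median length of 37.1 kb and second units of 31.0 kb, against 44.5 kb for the mRNA units in no pair. Tandem units were most frequent on the gene-dense chromosomes 19, with 117 units (20.8% of its mRNA units), and 16, with 72 (19.7%), and least frequent on X, with 12 (5.0%), and 13, with 4 (2.8%).

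The name tandem neighbours held for most pairs but not for all. In 258 pairs (55.2%) the units reached different RefSeq coding genes. In 83 pairs (17.8%) the gap lay inside a single coding gene that both units reached, so that the units were pieces of 1 gene. Another 106 pairs (22.7%) could not be placed in either class, and 20 on chromosome 8 were not compared with the annotation. Exactly 1 symbol could be given to each unit, with different symbols, in 179 pairs. Only these are named, with 1 exception below. An annotated unit of the opposite strand overlapped the gap in 254 pairs and none did in 213.

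First units ran past the annotated gene end by a median of 3.61 kb (n = 271), against 4.29 kb for mRNA units in no pair (n = 4836). The unit therefore already held much of the stretch after the polyadenylation site, and the gap was what remained up to the next unit. Second genes began a median of 0.006 kb upstream of their unit (n = 281). The start lay in the gap itself for 105 of them, in the second unit for 134 and in the first unit for 42.

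The binned tables held 68.9 M and 71.3 M counts (M, a count of 1e6) in TT-Seq and 54.3 M and 47.1 M in 4sU-Seq. Sheared total RNA had 43.1 M and 33.3 M counts and unsheared total RNA 30.4 M and 25.9 M. The S2P libraries held 73.7 M and 34.5 M counts and the N20 libraries 12.6 M and 23.3 M. ChIP counts carry no strand, and the counts summed over units and windows were even numbers in all 4 ChIP libraries, while 46.6% to 50.2% were odd in RNA libraries. Of 14 erythroid marker genes 4 could be matched to a unit by symbol. TFRC, the transferrin receptor, and ALAS2, the erythroid haem synthesis enzyme, were mRNA units, and TAL1 and GYPB were classed as enhancer RNA. A gene without a match may still lie in a unit that holds several genes or fits it poorly. The other markers are therefore not shown to be silent. Of 18 markers of other cell types only CD3D was matched in this way, at 0.243 and 0.175 counts per M counts in units and per kb (CPM per kb) in TT-Seq.

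Almost no same-strand RNA was counted in the gaps in any of the 8 RNA libraries. Because units were segmented from TT-Seq, a low TT-Seq count there follows in part from how gaps were defined, and it is given as a description. The median gap held 0.0128 ± 0.0008 CPM per kb in TT-Seq, 0.0216 ± 0.0018 in 4sU-Seq, 0.0243 ± 0.0021 in sheared total RNA and 0.0269 ± 0.0014 in unsheared total RNA (SD, n = 2 each). For a gap of 1.6 kb, a count of 0 in both libraries of a group allowed up to 0.0135 CPM per kb in TT-Seq, 0.0202 in 4sU-Seq, 0.0322 in sheared total RNA and 0.0399 in unsheared total RNA. These limits are 3 counts per group and cover counting error only, and the median gap was near or under them in every RNA group. In TT-Seq 100 gaps had no count in either library and 29 had at least 10 counts in both, while 12 had no count in any RNA library and 5 had at least 10 in every one.

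Counts in the gaps made up 0.0345% (95% Wilson interval 0.0328 to 0.0363) and 0.0371% (0.0354 to 0.0389) of all counts in the pairs in TT-Seq. The share was 0.0422% (0.0401 to 0.0445) and 0.0511% (0.0486 to 0.0537) in 4sU-Seq, 0.0445% (0.0422 to 0.0470) and 0.0497% (0.0468 to 0.0527) in sheared total RNA, and 0.0580% (0.0548 to 0.0614) and 0.0584% (0.0549 to 0.0621) in unsheared total RNA. The 4 labelled libraries averaged 0.0412 ± 0.0073% and the 4 total RNA libraries 0.0526 ± 0.0067% (SD), and their ranges overlapped. Neither that difference of -0.0114 percentage points (two-sided exact permutation p = 0.0857, where 0.0286 is the smallest possible) nor that of -0.0110 between the 4 sheared and the 4 unsheared libraries (exact permutation p = 0.114) passed 0.05. The first difference turned to 0.00166 (exact permutation p = 0.571) in the 179 pairs with different named genes, a set added after the data had been seen.

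On the opposite strand the same gaps held 25561 and 26848 counts in TT-Seq, where the units' own strand held 1488 and 1682. In sheared total RNA the opposite strand of the gaps held 14823 and 10967 counts and the units' own strand 1304 and 1109.

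Polymerase was found in gaps with almost no RNA on the units' own strand, though the opposite strand held more RNA. The median gap had 1.98 ± 0.07 CPM per kb in S2P ChIP and 1.65 ± 0.03 in N20 ChIP (SD, n = 2 each). The last kb of the first unit had 1.26 ± 0.37 and 1.03 ± 0.01. In the 323 gaps of at least 1 kb, the first kb after the first unit had 1.37 ± 0.27 and 1.03 ± 0.01. The last kb before the second unit had 2.38 ± 0.11 and 2.505 ± 0.303. In the 83 pairs that are pieces of 1 gene the gap lay below the first unit's end. Values were 0.357 against 0.801 in S2P and 0.321 against 0.578 in N20 ChIP. The 258 pairs of different genes had 2.29 against 1.42 and 1.99 against 1.03. Gap density exceeded that of the first unit's last kb in 249 and 278 of the 467 pairs in the S2P libraries and in 278 and 308 in the N20 libraries, but in 11 and 16 in the TT-Seq libraries. In all 4 ChIP libraries 338 gaps had at least 10 counts, and 21 gaps had none. ChIP cannot tell the strands apart: the 254 gaps with an other-strand unit had medians of 2.61 in S2P and 2.64 in N20 ChIP, and the 213 without one 1.20 and 0.995.

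**Figure D1:**
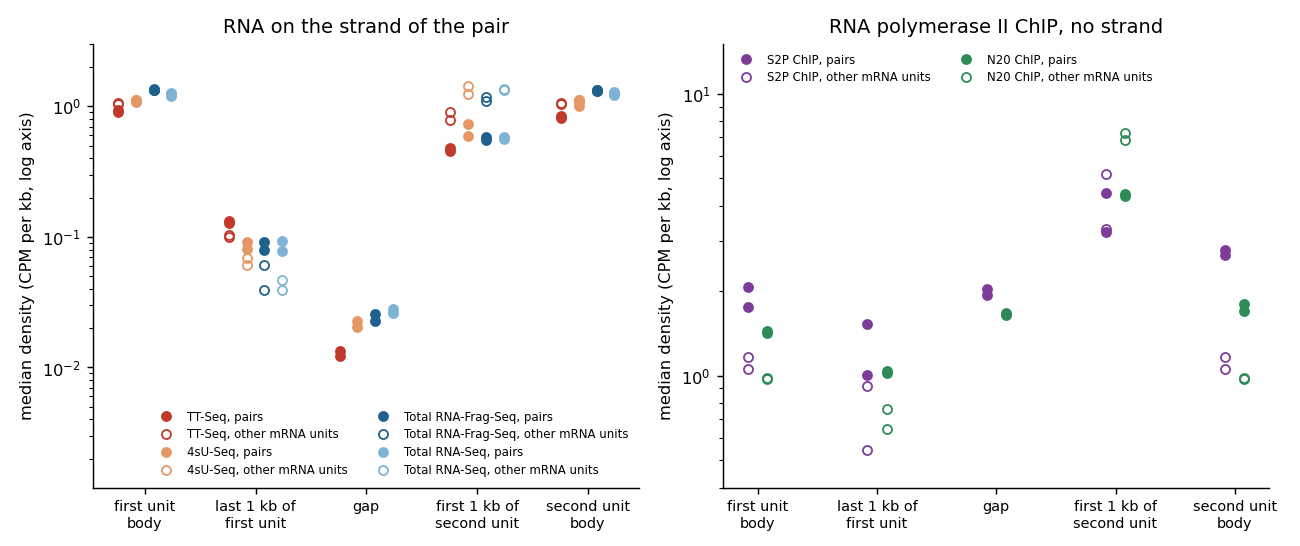
Median density in CPM per kb (log axes) over 5 zones of the 467 tandem pairs (filled points, 1 per library) and over the matching zones of mRNA units in no pair (open points). RNA density on the pair's strand is lowest in the gap among the 5 zones in every RNA group, at 0.0128 CPM per kb in TT-Seq. The gap's S2P and N20 densities, which carry no strand, are 1.98 and 1.65 CPM per kb and lie above those of the first unit's last kb.

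Bordering zones differed from those of other mRNA units in RNA and in ChIP. The start of the second unit, its first kb, had a median of 0.469 ± 0.020 CPM per kb in TT-Seq, against 0.847 ± 0.078 at the starts of mRNA units in no pair (SD, n = 2). The ratio of tandem to other starts averaged 0.490 over the 8 RNA libraries, with a range of 0.414 to 0.574, and was below 1 in all 8 (exact sign-flip permutation p = 0.00781, the smallest possible, adjusted over 10 comparisons 0.0391). All libraries read the same units in the same cell line. The sign-flip tests here and below therefore measure agreement of direction between libraries and not a spread among units. In N20 ChIP, which shows polymerase at starts most sharply here, the second unit's first kb had 4.36 ± 0.05 CPM per kb, against 7.06 ± 0.27 at other starts. The ChIP ratio at starts averaged 0.752 and was below 1 in all 4 libraries, where an exact sign-flip permutation test cannot go below p = 0.125.

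Low starts in TT-Seq and N20 ChIP were most marked in the pairs that are pieces of 1 gene but were not confined to them. Their second units began with 0.245 CPM per kb in TT-Seq and 1.09 in N20 ChIP, whereas the pairs of different genes had 0.537 in TT-Seq and 6.16 in N20 ChIP. Starts of different-gene pairs thus lay between those of 1-gene pairs and those of other mRNA units in TT-Seq and N20 ChIP. In S2P ChIP they stood at 3.73 and 5.64 CPM per kb and so above other mRNA starts, at 3.31 and 5.19, while 1-gene pairs had 1.33 and 1.00. Second starts were also lower in the 213 pairs without an other-strand unit, at 0.332 in TT-Seq and 1.92 in N20 ChIP. The 254 pairs with one had 0.621 and 7.67, and this N20 value is above the 7.06 of other mRNA starts, which were not split in this way. By gap length, TT-Seq starts had 0.635 after gaps of 2 to 5 kb, 0.289 after 1 to 2 kb and 0.390 under 1 kb. N20 ChIP had 6.61, 4.01 and 2.05 in the same order. These splits were not tested. Unit borders also lay further from RefSeq starts in second units. The quartiles of the RefSeq start's distance upstream of the border were -0.863 and 0.179 kb, against -0.343 and 0.04 kb for mRNA units in no pair. The part of this in the start densities was not tested.

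The last kb of the first unit was denser than other mRNA ends. TT-Seq had 0.130 ± 0.003 CPM per kb there, against 0.101 ± 0.002 at the ends of mRNA units in no pair (SD, n = 2), and sheared total RNA had 0.0850 ± 0.0086, against 0.0501 ± 0.0150. The ratio averaged 1.56 over the 8 RNA libraries, ranged between 1.29 and 2.00, and was above 1 in all 8 (exact sign-flip permutation p = 0.00781, adjusted 0.0391). The total RNA medians rest on very few counts per kb, so their ratios move in coarse steps. In the first unsheared library the ratio of 2.00 was 0.0782 against 0.0391 CPM per kb. The 1-gene pairs moved with the denser ends as well. Their first units ended with 0.224 CPM per kb in TT-Seq and 0.279 in sheared total RNA, whereas different-gene pairs had 0.123 in TT-Seq and 0.0600 in sheared total RNA. In the first sheared and the second unsheared total RNA library the ends of different-gene pairs, at 0.0607 and 0.0466, equalled those of units in no pair, and this split was not tested. Averaged over the 8 RNA libraries, body densities had mean ratios to other units of 0.925 for second and 0.957 for first units (exact sign-flip permutation, adjusted p = 0.0977 for each). In TT-Seq the ratios were lower, at 0.786 and 0.803 for second and 0.866 and 0.888 for first units. Over the total RNA libraries they ran from 0.973 to 1.02, and the protocols were not compared in a test.

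ChIP densities in the bodies lay above those of other mRNA units. Second units had a median of 2.73 ± 0.08 CPM per kb in S2P ChIP and first units 1.91 ± 0.22, against 1.11 ± 0.08 in mRNA units in no pair (SD, n = 2). In N20 ChIP the medians were 1.74 ± 0.06 in second units and 1.42 ± 0.01 in first units, against 0.977 ± 0.006. Both ratios were above 1 in all 4 ChIP libraries, with means of 2.1 for second and 1.58 for first units (exact sign-flip permutation p = 0.125, the smallest possible). Tandem units were also shorter and more often had a unit on the other strand close by, and the part of this in the ChIP densities was not tested.

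Around the borders the 2 antibodies had different shapes. In the 193 pairs with gaps of at least 2 kb, mean N20 density reached 13.1 and 13.98 CPM per kb in the 200-bp bin that holds the second unit's start. Around the second start, mean S2P density was highest 1 bin further, at 5.29 and 8.31 CPM per kb. It had been 3.37 and 3.06 in the bin that holds the first unit's end, and 3.83 and 3.64 in the next bin. Further back, 1.8 kb before that end, it had been 6.10 and 5.35, which in the first S2P library was above its value at the second start. At the same distance before the ends of the 6816 mRNA units with no same-strand unit in the next 5 kb it was 4.46 and 4.43.

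**Figure D2:**
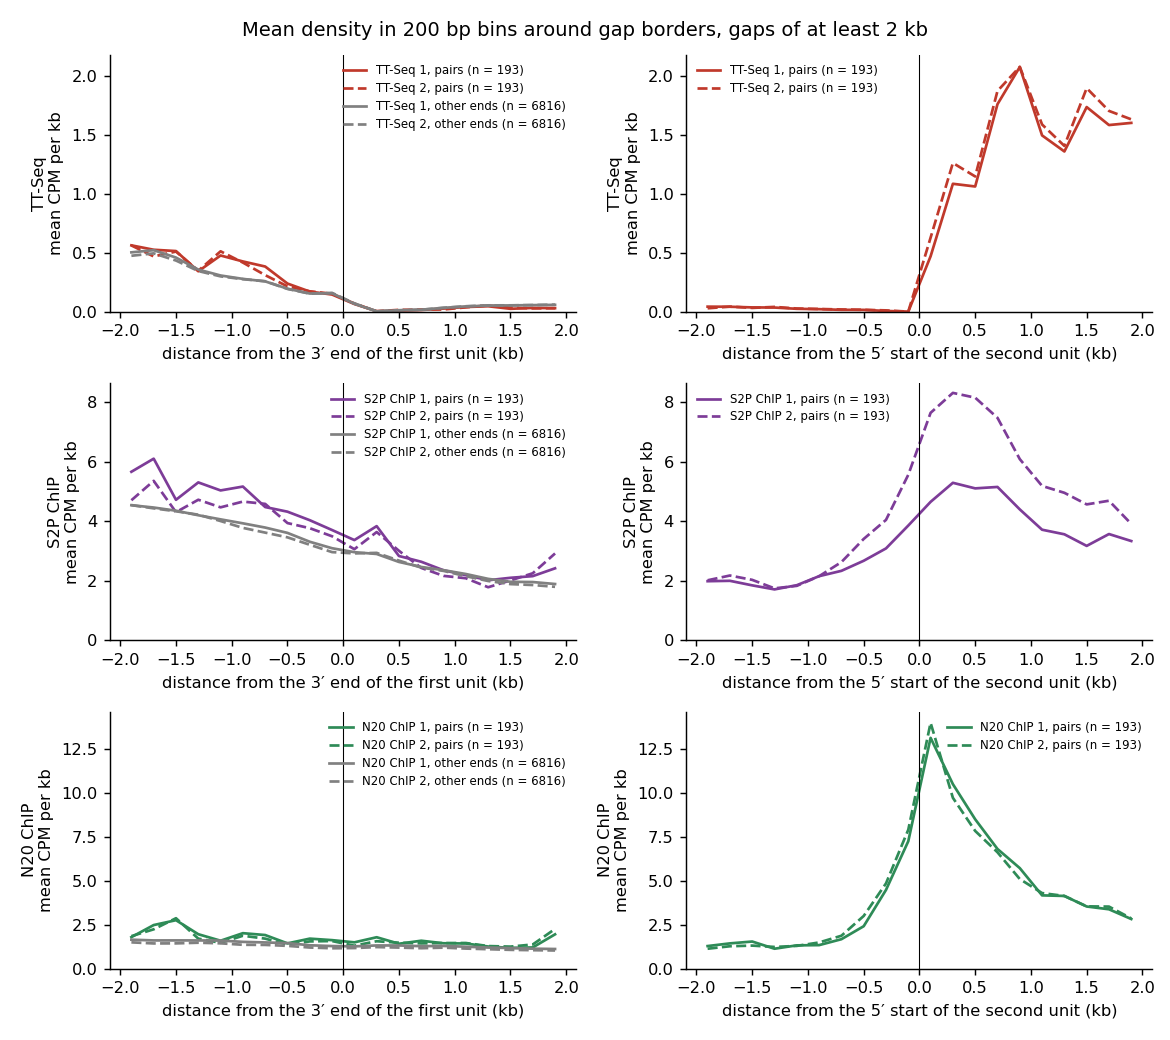
Mean density (CPM per kb) in 200-bp bins against distance in kb from the first unit's 3′ end and from the second unit's 5′ end, for the 193 pairs with gaps of at least 2 kb, with mRNA ends that have no same-strand unit in the next 5 kb in grey and 1 line per library. N20 ChIP peaks at 13.1 and 13.98 CPM per kb in the bin that holds the second unit's start. TT-Seq on the pair's strand, at 0.471 and 0.629 CPM per kb in that bin, is near 0 across the gap.

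Away from both borders polymerase was also denser than in open sequence, though other-strand units accompany this. In the 116 gaps of at least 3 kb, the kb lying 1 to 2 kb past the first unit had a median of 1.08 and 0.637 CPM per kb in S2P ChIP, against 0.736 and 0.455 at the same distance after open ends. In N20 ChIP the values were 0.763 and 0.842, against 0.509 and 0.647. The mean ratio was 1.42, above 1 in all 4 libraries (exact sign-flip permutation p = 0.125, the smallest possible). In the 37 such gaps without an other-strand unit, S2P ChIP had 0.782 and 0.455 CPM per kb, against 0.598 and 0.364 after 4975 open ends also without one. N20 ChIP had 0.509 and 0.518 there, against 0.509 and 0.647, so that without other-strand units the N20 libraries no longer lay above the open ends. Just inside and just outside the limit of 5 kb, 21 gaps of 4.5 to 5 kb had medians of 1.18 in S2P and 1.28 in N20 ChIP, and the first 5 kb of 30 gaps of 5 to 5.5 kb had 1.53 and 1.39.

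Where the second gene's annotated start lay separated polymerase-rich from polymerase-poor gaps. With the RefSeq start in the gap (105 pairs) the median gap had 2.90 and 3.77 CPM per kb in S2P ChIP and 4.28 and 4.29 in N20 ChIP. With the start in the second unit (134 pairs) it had 1.76 and 1.32 in S2P and 1.27 and 1.22 in N20 ChIP. With the start in the first unit (42 pairs), so that the gap lay inside the annotated second gene, it had 0.469 and 0.370 in S2P and 0.424 and 0.356 in N20 ChIP.

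The order of these 3 sets was the same in each of the 4 ChIP libraries, also among pairs with no unit of the other strand. There the medians in S2P ChIP were 2.54 and 3.45 with the start in the gap (36 pairs), 1.59 and 1.11 with the start in the second unit (42 pairs) and 0.368 and 0.273 with the start in the first unit (35 pairs). In N20 ChIP they were 2.07 and 2.88, 1.23 and 0.997, and 0.424 and 0.259 in the same order. TT-Seq did not separate the sets, with gap medians of 0.0098 to 0.0147 CPM per kb over the 6 values of the full sets. No test was run between these sets, which are positions in the annotation and not samples.

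**Figure D3:**
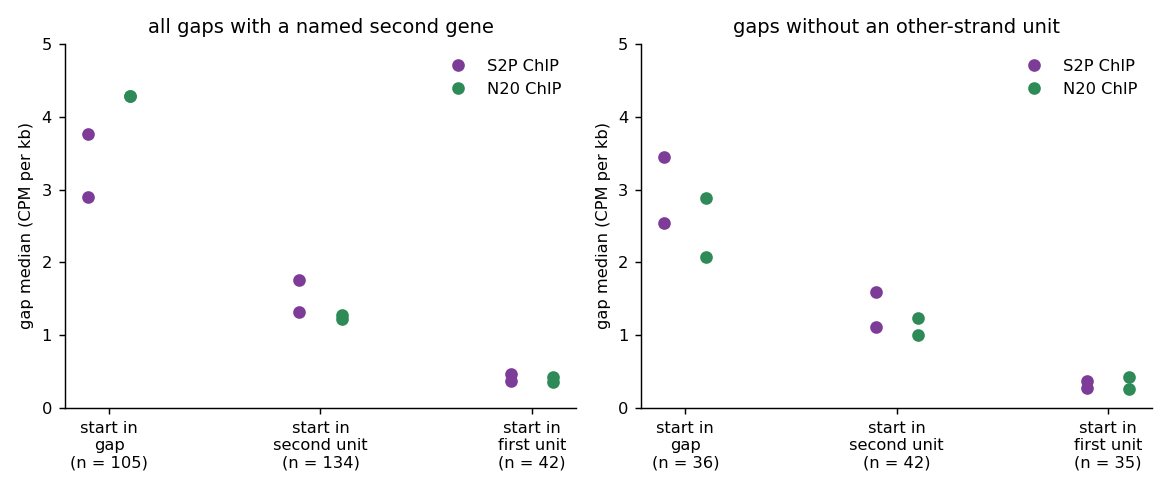
Median ChIP density in the gap (CPM per kb, 1 point per library) by where the RefSeq start of the second gene lies, for all matched pairs and for those with no unit on the other strand. Gaps that hold the start have 2.90 to 4.29 CPM per kb and gaps whose second gene starts within the first unit 0.356 to 0.469 over the 4 libraries.

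Both antibodies were then compared in each gap with edgeR's quasi-likelihood test, fitted over 7344 windows of which 391 were tandem gaps. S2P ChIP was higher than N20 ChIP in 61 gaps and lower in 37, with a median log2 fold change of 0.14. Over all windows tested 22.7% passed an adjusted p of 0.05, 17.6% higher and 5.05% lower. TMM scaling matches libraries on the bulk of units, and gaps are measured against these. Without it the split turned to 21 higher and 108 lower and the median to -0.48. Neither direction as a group therefore stands free of the scaling. Among the 150 tested gaps with no other-strand unit 25 were higher and 4 lower. Leaving out the first N20 library left 29 higher and 18 lower gaps, leaving out the second N20 library 33 and 20, and leaving out the second S2P library raised the lower count to 57.

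Among gaps between named genes and without other-strand units, 3 had the largest S2P excess. GLYR1-ROGDI, on the minus strand at chr16:4802429-4803016, joins a nucleosome-binding cofactor gene to ROGDI. Its gap had 38.7 and 51.1 CPM per kb in S2P ChIP, against 7.21 and 12.9 in N20 ChIP, and the groups did not overlap. The log2 fold change was 2.11 (SE 0.28, edgeR adjusted p = 5.46e-12), and the gap holds the ROGDI start whose upstream bases are printed above. Its RNA counts were 0 and 0 in TT-Seq, 5 and 5 in 4sU-Seq, 4 and 2 in sheared total RNA and 9 and 4 in unsheared total RNA.

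PIDD1-SLC25A22, on the minus strand at chr11:798217-799182, joins a scaffold gene of caspase activation to a mitochondrial glutamate carrier gene. The gap had 27.8 and 41.4 CPM per kb in S2P ChIP, against 7.13 and 8.16 in N20 ChIP, a log2 fold change of 2.17 (SE 0.28, edgeR adjusted p = 1.96e-12). TT-Seq counted 1 and 1 reads there. In MPHOSPH9-PITPNM2, on the minus strand at chr12:123150592-123151720, where a centrosomal protein gene precedes a phosphatidylinositol transfer protein gene, S2P ChIP had 22.4 and 36.6 CPM per kb, against 4.24 and 9.82 in N20 ChIP. Its log2 fold change was 2.02 (SE 0.28, edgeR adjusted p = 3.65e-11). These 3 gaps kept the direction and the call in all 11 alternatives tried for each.

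INTS1-MICALL2, on the minus strand at chr7:1459370-1459893, was the 1 named gap of this kind in which S2P ChIP was lower. INTS1 encodes the scaffold subunit of Integrator and MICALL2 a Rab effector. The gap had 6.78 and 14.3 CPM per kb in S2P ChIP, against 29.3 and 35.3 in N20 ChIP, with no overlap (log2 fold change -1.65, SE 0.30, edgeR adjusted p = 6.16e-07). With 524 bp it is among the shortest gaps, and the 250 bases shown for MICALL2 fill much of it.

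The densest S2P gap lay between GRK6, a kinase of G protein-coupled receptors, and PRR7, and was picked out after its values had been seen. At chr5:177446307-177447393 on the plus strand, with an other-strand unit overlapping, it had 7386 and 7082 counts in S2P ChIP, 169.8 and 322.2 CPM per kb, against 128 and 380 counts in N20 ChIP, 16.3 and 24.6 CPM per kb (log2 fold change 3.58, SE 0.30, edgeR adjusted p = 7.64e-28). This 1 gap took 5.48% and 8.49% of all S2P counts in tandem gaps. All gaps together held 2.53% and 3.20% of the pairs' counts in S2P ChIP and 3.73% and 4.16% in N20 ChIP, and without it 2.41% and 2.96% in S2P and 3.71% and 4.13% in N20 ChIP. RNA on the units' strand there was 0 and 1 counts in TT-Seq, 3 and 1 in 4sU-Seq, 2 and 0 in sheared total RNA and 6 and 5 in unsheared total RNA.

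**Figure D4:**
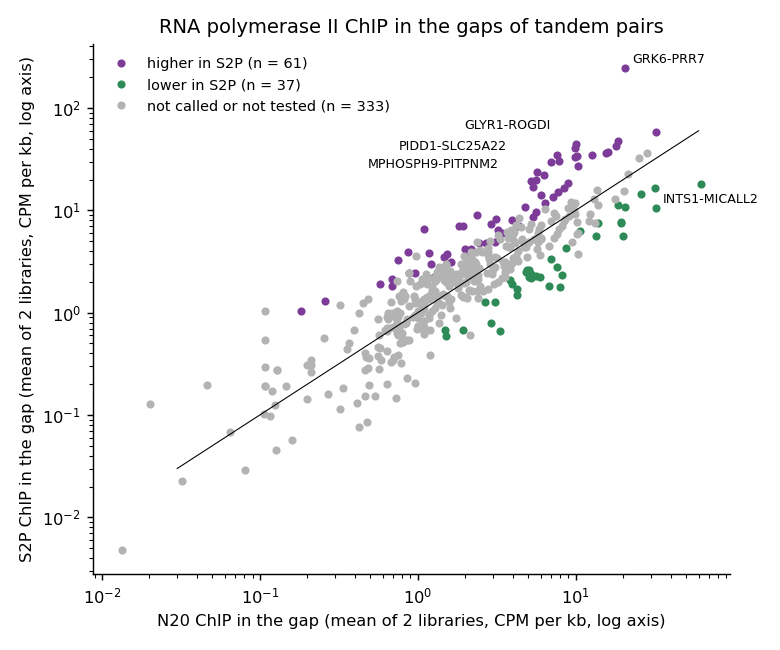
S2P ChIP against N20 ChIP density in each tandem gap (means of 2 libraries, CPM per kb, log axes), for the 431 gaps with counts above 0 for both antibodies, coloured by the edgeR call. Of the tested gaps 61 lie higher in S2P ChIP and 37 lower, and GRK6-PRR7 stands at the top with S2P values of 169.8 and 322.2 CPM per kb.

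Across the gap, S2P ChIP gained less towards the second start than N20 ChIP did. The ratio of the second unit's first kb to the first kb of the gap could be tested in 188 pairs. It was lower for S2P than for N20 ChIP in 33 and higher in 2 (limma, adjusted p under 0.05), with a median log2 difference of -0.94. Over all 3577 windows tested with a start behind them, 36.1% passed, 0.335% higher and 35.8% lower. Lower ratios were thus called in a smaller share of tandem pairs than of all pairs, and the trait is not particular to tandem pairs. Without the first S2P library 1 pair was lower, and 4 and 5 were lower without the first or the second N20 library. With at least 100 counts required 18 were lower.

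RNA in the gaps was compared between protocols in the 46 gaps that had enough counts. As gaps were defined from TT-Seq, lower TT-Seq counts in these comparisons follow in part from that definition. A gap could also enter through its counts in 1 protocol alone. The filter can therefore favour gaps high in total RNA and also gaps high in labelled RNA. Without the filter 455 gaps gave 6 higher and 51 lower in TT-Seq than in sheared total RNA, with a median log2 fold change of -0.63. Among the 46 filtered gaps TT-Seq was higher than sheared total RNA in 4 and lower in 24, with a median log2 fold change of -1.56 (edgeR, adjusted p under 0.05). Of all 2709 windows tested 45.6% passed, 15.2% higher and 30.4% lower. 4sU-Seq was higher than unsheared total RNA in 3 gaps and lower in 11, where 24.9% of windows passed (11.9% higher, 13% lower). TT-Seq was higher than 4sU-Seq in 1 gap and lower in 14, where 24.8% of windows passed (6.28% higher, 18.5% lower). In the 9 tested gaps between units with different named genes, a set added after the data had been seen, TT-Seq was higher than sheared total RNA in 2 and lower in 3, and the median turned to 0.18. With DESeq2 2 gaps were higher in TT-Seq than in sheared total RNA, and with bins wholly inside the gap the lower ones numbered 13. Leaving out the first or the second unsheared total RNA library gave 38 lower gaps, out of 89 and 87 that could then be tested.

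PHACTR4-RCC1 had the highest TT-Seq density among gaps between named genes. It was chosen for that density, so a TT-Seq excess follows in part from the choice and its test is no independent support. PHACTR4 encodes a regulator of protein phosphatase 1 and actin, and RCC1 the nucleotide exchange factor of Ran. The gap at chr1:28503237-28506051 on the plus strand had 36 and 29 counts in TT-Seq, against 2 and 4 in sheared total RNA. It had 20 and 21 counts in 4sU-Seq, against 3 and 4 in unsheared total RNA, and in neither comparison did the groups overlap. The log2 fold change of TT-Seq over sheared total RNA was 2.15 (SE 0.53, edgeR adjusted p = 0.000342), and the ratio of summed counts per depth was 4.56 (95% counting interval 1.98 to 12.9). The call was lost without the first sheared total RNA library, where the value was 1.55 (edgeR adjusted p = 0.0797), and held in the other 13 alternatives.

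NXT1-GZF1 was the other named gap with more TT-Seq. It was chosen by TT-Seq density too, and the same limit holds for its test. NXT1 encodes the partner of the mRNA export receptor NXF1 and GZF1 a zinc finger protein. The gap at chr20:23357206-23362046 on the plus strand had 21 and 22 counts in TT-Seq, against 1 and 0 in sheared total RNA, with a log2 fold change of 3.96 (SE 0.93, edgeR adjusted p = 0.000159). Its count ratio of 18.1 had a wide interval of 3.08 to 731, since 1 count stood in the denominator. Units of the other strand overlapped both of these gaps. A further gap that passed lay between CCNC, the cyclin of the Mediator kinase module, and a unit that held more than 1 gene, and the last was on chromosome 8.

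The other gaps chosen for their TT-Seq density held few counts and no call. RAE1-RBM38, between an mRNA export factor gene and an RNA-binding protein gene, had 11 and 17 counts in TT-Seq and 2 and 0 in sheared total RNA, too few to be tested, with a count ratio of 5.89 (1.49 to 51.0). FAM135A-SDHAF4, which ends in a gene for an assembly factor of succinate dehydrogenase, had 8 and 19 counts in TT-Seq and 5 and 5 in sheared total RNA, a ratio of 1.14 (0.533 to 2.63). RANBP6-BRD10 had 14 and 27 counts in TT-Seq and 10 and 5 in sheared total RNA, a ratio of 1.15 (0.623 to 2.24). The last gap lies inside an annotated coding gene and had 0 and 0 counts in S2P and 2 and 2 in N20 ChIP, so that RNA came with almost no polymerase counts there, unlike at the other 4.

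Gaps with less TT-Seq included 3 between named genes. NDUFS1-INO80D, between a respiratory complex I subunit gene and an INO80 complex gene, had 5 and 3 counts in TT-Seq, against 16 and 19 in sheared total RNA (log2 fold change -3.32, SE 0.57, edgeR adjusted p = 1.95e-07). DUS1L-RFNG had 3 and 7 counts in TT-Seq, against 9 and 13 (log2 -2.35, edgeR adjusted p = 0.000566), and ATG4B-ING5, with an autophagy protease gene first, 3 and 6, against 9 and 6 (log2 -1.94, edgeR adjusted p = 0.0156). These low counts overlapped between groups only in ATG4B-ING5. They were chosen after their values had been seen.

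In most of the pairs' units TT-Seq lay below sheared total RNA, more often in second units than in first units. Of 466 second units tested 37 were higher and 346 lower (median log2 fold change -0.60), and of 466 first units 71 were higher and 312 lower (median -0.50) by edgeR at an adjusted p under 0.05. Over all 7808 mRNA units tested 79.1% passed, 17.9% higher and 61.2% lower, and the mRNA units in no pair had a median of -0.32. Over all 19073 units of every class 80.9% passed, 42.6% higher and 38.3% lower, and the median was 0.07. It was 0.44 when TMM scaling was omitted, and then 114 second units were higher and 251 lower, as were 154 and 225 first units.

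Unit length moved with these values. Among units of 30 kb or longer the median log2 fold change was -0.40 in second units, -0.29 in first units and -0.19 in mRNA units in no pair. Among those under 10 kb it was -0.98, -1.08 and -0.93 in the same order, and from 10 to 30 kb -0.95, -0.88 and -0.63. Tandem units are shorter than other mRNA units, and within each length class their medians were still the lower ones. The contribution of length was not tested otherwise.

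Both units of a pair were lower in TT-Seq in 245 pairs (52.5%) and both higher in 10. The first was higher and the second lower in 49 pairs, and the reverse held in 15. The ratio of second to first unit was tested directly in 461 pairs with limma. It was higher in TT-Seq than in sheared total RNA in 138 pairs and lower in 186, with a median log2 difference of -0.08. Over all 7730 same-strand neighbouring pairs 72.4% passed, 36.2% in each direction, so that calls in either direction were about as frequent in close neighbours. The calls in tandem pairs leaned to lower ratios, and 42.6% of them were higher. Spearman's rho between the log2 fold changes of the 2 units was 0.38 in tandem pairs. It was 0.38 in pairs 5 to 20 kb apart and 0.25 in pairs over 20 kb apart, which was not tested.

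**Figure D5:**
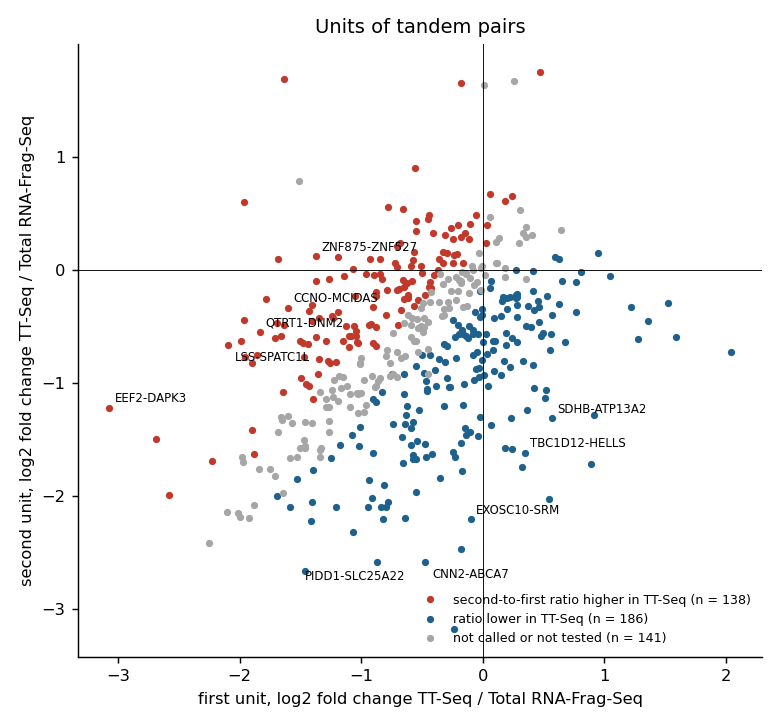
Log2 fold change TT-Seq over sheared total RNA of the second unit against that of the first unit, 1 point per pair, coloured by the limma call on the second-to-first ratio. Of the tested pairs 138 have a higher and 186 a lower ratio in TT-Seq, and EEF2-DAPK3 stands at the far left, with -3.07 for EEF2 and -1.22 for DAPK3.

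In the 5 named pairs whose ratio was raised most in TT-Seq, the first gene was the more depleted from labelled RNA, which follows from their choice by the ratio. Among their second genes DAPK3, SPATC1L (log2 fold change -0.66) and DNM2 (-0.55) were lower in TT-Seq too (edgeR adjusted p = 2.01e-08, 9.11e-07 and 3.95e-07). EEF2, which drives translocation of the ribosome, had 16.7 and 17.5 CPM per kb in TT-Seq, against 149.5 and 138.2 in sheared total RNA. DAPK3, a serine/threonine kinase gene whose unit starts after a gap of 1960 bp, had 0.463 and 0.489 CPM per kb in TT-Seq, against 1.09 and 1.13. Neither unit's groups overlapped. The log2 fold changes were -1.22 for DAPK3 and -3.07 for EEF2, and the second-to-first ratio was higher by 1.85 (SE 0.07, limma adjusted p = 4.28e-07). The gap at chr19:3973178-3975137 had 2 and 3 counts in TT-Seq and none in sheared total RNA.

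LSS encodes lanosterol synthase of cholesterol synthesis. It had 0.492 and 0.529 CPM per kb in TT-Seq, against 2.15 and 2.23 in sheared total RNA, while SPATC1L behind it had 0.795 and 0.883, against 1.33 and 1.33. The ratio was higher in TT-Seq by 1.43 (SE 0.08, limma adjusted p = 1.11e-06). QTRT1-DNM2, a tRNA-modifying enzyme gene followed by that of dynamin 2, had a ratio higher by 1.28 (SE 0.11, limma adjusted p = 7.93e-06). In ZNF875-ZNF527, both zinc finger genes, it was higher by 1.49 (SE 0.16, limma adjusted p = 2.39e-05). CCNO-MCIDAS, whose products act in multiciliated cells, had a ratio higher by 1.28 (SE 0.35, limma adjusted p = 0.00869) at low levels: CCNO had 0.129 and 0.176 CPM per kb in TT-Seq and MCIDAS 0.167 and 0.142. It did not pass without the first TT-Seq library (0.95, limma adjusted p = 0.0719) or without the second sheared total RNA library (0.96, limma adjusted p = 0.0639).

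In the 5 named pairs whose ratio fell most, the second gene was the more depleted, which again follows from the choice. The first genes PIDD1 (log2 fold change -0.87, edgeR adjusted p = 7.67e-07) and CNN2 (-0.48, edgeR adjusted p = 0.00554) were lower in TT-Seq too. The call of CNN2 was lost without TMM scaling (-0.13), without the first TT-Seq library (-0.34) and without the first sheared total RNA library (-0.36). SRM, spermidine synthase of polyamine synthesis, had 2.39 and 2.70 CPM per kb in TT-Seq, against 12.5 and 10.9 in sheared total RNA, a log2 fold change of -2.21. EXOSC10, a nuclease of the nuclear RNA exosome, lies first in this pair and had 1.33 and 1.40 in TT-Seq, against 1.48 and 1.44, a value of -0.10 that did not pass (edgeR adjusted p = 0.158). The ratio fell by 2.11 (SE 0.11, limma adjusted p = 7.39e-07). The 931-bp gap at chr1:11059943-11060873 had 6.38 and 8.99 CPM per kb in S2P ChIP and 13.997 and 24.6 in N20 ChIP, and it holds the GC-rich SRM sequence printed above.

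ABCA7, a lipid transporter gene behind CNN2, had 0.577 and 0.629 CPM per kb in TT-Seq, against 3.75 and 3.46 in sheared total RNA. The actin-binding CNN2 had 0.698 and 0.831, against 1.14 and 0.975, and the ratio fell by 2.11 (SE 0.10, limma adjusted p = 5.61e-07). In SDHB-ATP13A2 the units moved in opposite directions. ATP13A2, a lysosomal polyamine transporter, had 0.497 and 0.543 CPM per kb in TT-Seq, against 1.31 and 1.28, whereas SDHB, the iron-sulfur subunit of succinate dehydrogenase, had 2.31 and 2.25, against 1.60 and 1.46. That ratio fell by 1.89 (SE 0.11, limma adjusted p = 1.09e-06).

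The same opposite directions were seen in TBC1D12-HELLS. HELLS, a chromatin remodelling helicase, had 0.411 and 0.449 CPM per kb in TT-Seq, against 1.39 and 1.25 in sheared total RNA, and TBC1D12 had 0.526 and 0.548, against 0.411 and 0.434. The last of the 5 was PIDD1-SLC25A22, the S2P-rich pair above. SLC25A22 had 0.363 and 0.456 CPM per kb in TT-Seq, against 2.54 and 2.36, and PIDD1 had 0.991 and 1.05, against 1.85 and 1.86, so that the ratio fell by 1.72 (SE 0.14, limma adjusted p = 6.74e-06).

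Neighbours were more alike in polymerase than in RNA. Across the 467 pairs, Spearman's rho between the levels of the second and the first unit was 0.34 in TT-Seq, against 0.14 in 722 pairs 5 to 20 kb apart and 0.10 in 6575 pairs further apart. In the 179 pairs of different named genes it was 0.16. In S2P ChIP it was 0.78 and in N20 ChIP 0.76 in the tandem pairs, and 0.59 and 0.58 in pairs over 20 kb apart. These are descriptions across pairs, which share libraries, base composition and, in 1-gene pairs, the gene. The second unit stood above the first in 204 and 198 pairs in TT-Seq (43.7% and 42.4%) but in 292 and 278 in S2P ChIP.

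In 10 pairs both symbols began with the same letters. They include MAP3K5-MAP7, which are not copies of each other, and where the genes are near copies they may share reads, so that their counts are uncertain. DDX19A behind DDX19B had a log2 fold change of -0.67, against 0.20 for DDX19B, and the ratio fell by 0.86 (SE 0.10, limma adjusted p = 4.17e-05). In ZNF530-ZNF134 the ratio was higher in TT-Seq by 1.08 (SE 0.16, limma adjusted p = 0.000229). The myosin light chain copies MYL12B and MYL12A had log2 fold changes of -0.28 and -0.43.

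Of 30 genes for cleavage, polyadenylation and termination factors, 25 were matched to a unit by symbol. Of these, 7 were higher and 13 lower in TT-Seq than in sheared total RNA, with a median log2 fold change of -0.17. Of all mRNA units tested 79.1% passed, 17.9% higher and 61.2% lower, so that the share called was near this background. PPP1R10, a targeting subunit of the phosphatase that acts in termination, was higher by 1.07 (SE 0.06), and SSU72, a phosphatase of the polymerase tail, was lower, at -1.05 (SE 0.07). XRN2, the nuclease of the termination step itself, had a value of 0.03 that did not pass (edgeR adjusted p = 0.604). INTS11, the endonuclease subunit of Integrator, was the 1 matched member in a tandem pair. It had 1.25 and 1.48 CPM per kb in TT-Seq, against 5.33 and 5.06, a log2 fold change of -1.93 (SE 0.09). Its gap to ACAP3 at chr1:1308176-1309836 on the minus strand had 38.2 and 36.5 CPM per kb in S2P ChIP, against 15.4 and 16.5 in N20 ChIP (log2 1.22, SE 0.27, edgeR adjusted p = 6.79e-05), and no TT-Seq count.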

How the data were processed

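Units, their classes and their coordinates (hg38, GRCh38) were taken from the authors' deposited annotation. The counts per 200-bp bin and strand were deposited by the authors as raw counts. The submitters' processing notes name STAR 2.3.0, Bowtie2 2.1.0 and SAMtools, with no role stated here. Bins were assigned by their midpoint and summed over units, gaps and windows of 1 kb next to unit borders. Densities are counts divided by the library's total in units and its TMM factor, per 1e6 and kb (CPM per kb). The members and lists were chosen with earlier results of these data known.

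Unit and window counts were tested with edgeR 4.0.16 (quasi-likelihood, robust, R 4.3.3) over all 8 RNA or all 4 ChIP libraries, and ratios of neighbouring windows with limma 3.58.1 on log2 ratios with a pseudocount of 1 and at least 20 counts on average. P-values were adjusted by Benjamini and Hochberg over all units, windows or pairs tested. Differences over libraries had exact permutation tests. Both fits were tested on simulated data. DESeq2 1.42.0, other scalings, no filter, other gap borders, each library left out and a replicate block were alternatives. The ratio of gap to first-unit end was not computed, as no pair had 20 counts in both. Depth was 12.6 to 73.7 M counts (M, 1e6) per library, and intervals cover counting error only. RefSeq GRCh38.p14 gave symbols, gene ends and promoter sequences. For naming, both units needed a symbol. Named were the 5 highest and 5 lowest second-to-first ratio changes among pairs that passed, the 5 gaps densest in TT-Seq, the 3 highest and 3 lowest S2P against N20 gaps without other-strand units among those that passed, and the termination genes. No gap reached the 1 CPM asked of a further set.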

Additional observations from a re-analysis of the deposited data

Results flagged for a closer look

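The change between labelled and total RNA was compared with and without shearing, as the log2 fold change of TT-Seq over Total RNA-Frag-Seq minus that of 4sU-Seq over Total RNA-Seq. In 23 of the units named above this difference itself passed (edgeR's quasi-likelihood test, adjusted p under 0.05). Over all 19073 units 35.0% passed, 8.9% higher and 26.1% lower. Among the second units of tandem pairs 59.2% passed, 5.2% higher and 54.1% lower, and among the first units 59.2%, 10.3% higher and 48.9% lower. The 19073 units are of every class, and no share was computed for mRNA units in no pair. The difference was 0.42 for SDHB, 0.65 for ZNF527 and 0.46 for RAE1, where shearing went with a higher value of the labelled RNA. It was -0.64 for ATP13A2, -1.18 for SRM, -0.62 for HELLS, -0.71 for PIDD1, -1.51 for SLC25A22, -0.45 for PITPNM2, -0.28 for GLYR1, -1.43 for ROGDI, -1.18 for ABCA7 and -1.01 for QTRT1. It was also -0.30 for DNM2, -0.70 for ZNF875, -1.37 for EEF2, -0.59 for RBM38, -1.51 for LSS, -0.36 for SPATC1L, -1.51 for CCNO, -1.04 for INTS1, -1.45 for MICALL2 and -0.55 for BRD10. The 3 with the largest size, SLC25A22, LSS and CCNO, are the second unit of 1 pair and the first units of the others.

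Among tandem gaps 9 of the 46 tested had a lower difference by the same test (19.6%) and none a higher one, against 12.5% lower and 1.4% higher over all 2709 windows, with 14 of the tandem gaps at an unadjusted p under 0.05 in either direction. Gaps were defined from TT-Seq, and a lower value there follows in part from that. The 1 between named genes was NDUFS1-INO80D, with -3.13, from 5 and 3 counts in TT-Seq, 5 and 7 in 4sU-Seq, 16 and 19 in sheared total RNA and 6 and 1 in unsheared total RNA. Why these differences arise was not tested.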

How the results depend on the processing

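Each result was recomputed under the alternatives, and settings marked here as added were chosen after seeing the data. Of the comparisons' values 181 kept direction and size or side of the threshold, 58 counts moved by over 1.5 times, 2 values newly passed and 1 turned; among named units and gaps 607 were unchanged in call and direction, 10 lost the call, 3 newly passed and 11 turned. The main limits are the few same-strand RNA counts in gaps, the 2 libraries per group, scaling between assays, and gaps defined from TT-Seq.

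In the order first units higher and lower, second units higher and lower, no TMM scaling moved the higher counts to 154 and 114, and the added restriction to pairs of different named genes gave 22, 129, 9 and 141, as fewer pairs enter. That restriction left 2 higher and 3 lower gaps for TT-Seq over sheared total RNA, 1 and 1 for 4sU-Seq over unsheared total RNA, 0 and 1 for TT-Seq over 4sU-Seq, 53 and 75 second-to-first ratios, 1 and 15 start-to-gap ratios and 26 and 21 ChIP gaps. DESeq2 called 2 gaps higher in TT-Seq than in sheared total RNA, 0 higher and 4 lower in 4sU-Seq than in unsheared total RNA, and 0 higher and 3 lower in TT-Seq than in 4sU-Seq, where edgeR gave 22 at an unadjusted p under 0.05 for the last. Bins wholly inside the gap gave 13, 3 and 6 lower gaps in the 3 RNA comparisons, and no filter 51 in the first. ChIP gaps were 21 higher and 108 lower without TMM scaling and 25 and 4 without other-strand units. Start-to-gap ratios were lower in 18 pairs with at least 100 counts and higher in 1 with ChIP counts divided by 2 (added). The gap share differed between labelled and total RNA by -0.0491 (exact permutation p = 0.0286) as a mean over pairs (added) and by 0.00166 (exact permutation p = 0.571) in pairs of different named genes, and between sheared and unsheared RNA by -0.0113 (exact permutation p = 0.0286) as a median over pairs. The causes were not tested.

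Leaving out 1 library at a time gave 61 to 71 higher and 289 to 322 lower first units, 30 to 37 and 321 to 353 second units, 4 to 6 and 23 to 38 gaps for TT-Seq over sheared total RNA, 1 to 3 and 3 to 18 for 4sU-Seq over unsheared total RNA, 0 to 1 and 6 to 18 for TT-Seq over 4sU-Seq, 117 to 130 and 164 to 179 second-to-first ratios, 0 to 1 and 1 to 40 start-to-gap ratios, and 29 to 75 and 18 to 57 ChIP gaps. The 4sU-Seq gaps lower than unsheared total RNA numbered 3 without the first 4sU-Seq library, 5 without the second unsheared and 18 without the second sheared total RNA library. Those lower in TT-Seq than in 4sU-Seq numbered 6 and 7 without the first or the second TT-Seq library and 6 without the second 4sU-Seq library. The gap share differences ranged between -0.0147 and -0.00918 and between -0.0144 and -0.00864. Without TMM scaling the log2 fold changes of PHACTR4 (0.10), EXOSC10 (0.25), PITPNM2 (0.023), NXT1 (0.016), GZF1 (0.22), MCIDAS (0.010) and RANBP6 (0.029) turned positive. The RANBP6-BRD10 gap turned to -1.37 with bins wholly inside, and with 1 library left out it ranged between -0.28, without the second TT-Seq library, and 0.59, with -0.07 without the second sheared total RNA library. The FAM135A-SDHAF4 gap ranged between -0.028, without the first sheared total RNA library, and 0.32.

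Same-numbered libraries did not deviate together, with correlations of 0.004 to 0.099 among RNA groups and -0.0775 between the antibodies. Weak correlations cannot exclude that same-numbered libraries came from 1 culture, and the labels do not say. The main fits treated them as unpaired. A fit with the replicate block gave 71 higher and 313 lower first units, 37 and 348 second units, 4 and 24, 3 and 10, and 1 and 15 gaps in the 3 RNA comparisons, 140 and 185 second-to-first ratios, 63 and 42 ChIP gaps, and 3 and 45 start-to-gap ratios.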
